A study of Mus musculus with 6 samples.

Results

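Collagen chain genes were compared between STING knockout and control samples of L929, a mouse fibroblast cell line. The members were all genes whose symbol in the deposited table is Col, a number, the letter a and a number, 44 of the 27507 genes listed. The tested samples were 3 labelled STING KO, and they were set against 3 labelled control, whose genotype label is WT. The labels name no treatment, and the method of knockout, and whether the line is 1 clone, is not given in the sources used here. Since no label ties a replicate to a culture of its own, p-values measure the spread between these 6 libraries, and that spread may be technical.

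Collagens are secreted proteins in which several chains wind around each other, and each chain is encoded by its own gene. Fibrillar collagens form the cables of connective tissue, basement membrane collagens form sheets under cell layers, and network collagens such as type VIII form hexagonal lattices in vessel walls and the cornea. Beaded filament collagen of type VI links cells to the fibres, FACIT collagens sit on fibril surfaces, multiplexins are attached to basement membranes and transmembrane collagens stay in the plasma membrane. STING is an adaptor of the endoplasmic reticulum that relays the signal of the DNA sensor cGAS, and fibroblasts are a main source of the fibrillar chains.

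One collagen gene, Col8a1 of the network class, was called lower in STING KO, and none was called higher. A gene was tested where at least 3 samples had a normalized count (a gene's count divided by the size factor of its library) of at least 10, and it was called at a limma adjusted p at or under 0.05. Of the 44 members, 27 were tested and 17 lay below the minimum. Of the 27 tested, 1 was called lower, beside 0.258% of all 12408 genes tested, and 0 were called higher, beside 0% of all genes. Before adjustment, 3 of the 27 members (Col8a1, Col6a1 and Col6a2) had a limma p at or under 0.05, beside 6.37% of all genes. The signs of the 27 fold changes were mixed, 14 positive and 13 negative, with a median log2 fold change of 0.04, beside -0.0025 over all genes tested.

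The library totals were 14382072 to 14526606 normalized counts. Sting1, listed as Tmem173, was at 82.2, 80.6 and 93.4 normalized counts in STING KO and at 329.5, 313 and 311 in control, lower in each library labelled STING KO than in each labelled control (26.9% of the control mean). Of 13 fibroblast markers, 10 passed the minimum, led by Vim (vimentin) at 86468 to 103473 normalized counts in STING KO and 79614 to 90281 in control, while Fap and Twist1 were at most 0.998 and Pi16 at most 6.98. Of 8 cartilage markers, 5 passed, among them Hapln1 at 2072 to 2469 in STING KO and 2124 to 2523 in control, while Acan was at most 0.998. STING KO replicate 1 and control replicate 3 stood apart by transcripts typical of hepatocytes: they held 2552 and 2780 normalized counts of the albumin gene Alb, beside 101 to 268 in the other 4.

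Col8a1 encodes the alpha 1 chain of type VIII collagen, a short-chain collagen made by endothelial, smooth muscle and corneal cells and by fibroblasts. Its gene (ENSMUSG00000068196, protein coding) lies on the minus strand of chromosome 16, from 57624258 to 57754737 in GRCm38. It was at 259, 267 and 213 normalized counts in STING KO and at 370, 375 and 442 in control. Every STING KO library lay under every control library, with STING KO replicate 3 the lowest and control replicate 3 the highest. The means were 246 ± 29.2 in STING KO and 396 ± 40.1 in control (SD, n = 3 each), so that STING KO was at 62.2% of control. Its change on the log2 scale was -0.69 (SE 0.11, limma adjusted p = 0.0428), a fold of 0.621 with a 95% interval of 0.526 to 0.735, and the gene ranked 30 by p among the 12408 tested. In bulk RNA, fewer cells with the transcript and less transcript per cell cannot be told apart.

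The call on Col8a1 lay close to the threshold, and of the 15 alternatives it held in 6 and was lost in 9. The fold change was negative in all 15. Since the groups do not overlap, leaving out libraries could not have turned its sign. Leaving out control replicate 1, 2 or 3 gave an adjusted p of 0.165, 0.0681 or 0.202. Leaving out STING KO replicate 1 or 2 gave 0.165 or 0.0618, and leaving out STING KO replicate 3 gave 0.0312. The fit without STING KO replicate 1 and control replicate 3 together, the libraries with hepatocyte transcripts, gave a log2 fold change of -0.64 and an adjusted p of 0.488 from 2 samples per group. limma-voom gave 0.0554, no filter on low values 0.103 and the replicate number as a block 0.293. In the authors' deposited table the adjusted p of Col8a1 is 0.000386, and it is the 1 collagen gene past the threshold there, beside 0.251% of all genes lower and 0.043% higher.

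**Figure D1:**
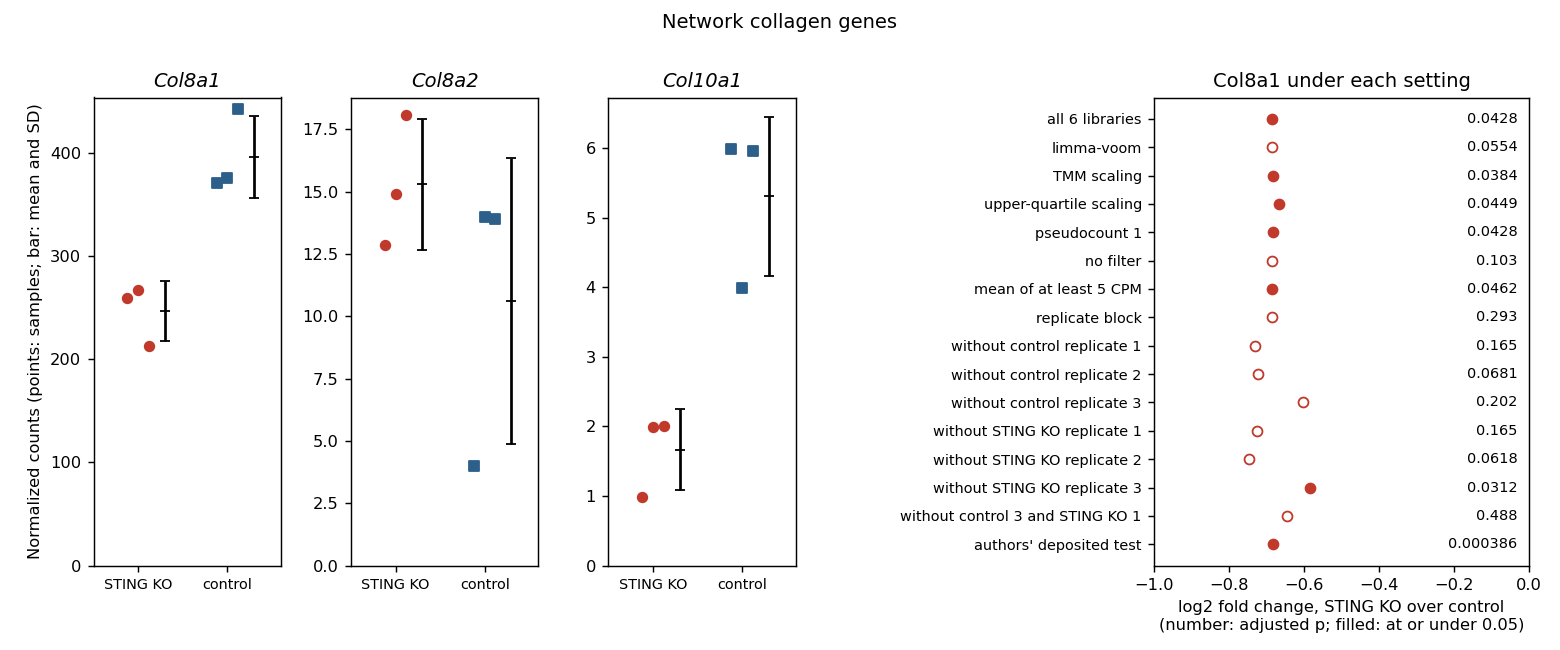
Normalized counts of the network collagen genes in each sample (red circles, STING KO; blue squares, control; black bars, mean and SD), and the log2 fold change of Col8a1 (x axis, STING KO over control) under the main and 15 other settings with the adjusted p of each. Col8a1 is lower in all 3 STING KO samples, at 213 to 267 against 370 to 442 in control, and its fold change stays between -0.75 and -0.58 while its adjusted p crosses 0.05.

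The other genes of the network class were near the limit of detection. Col8a2, the alpha 2 chain of type VIII collagen, was at 12.9, 14.9 and 18.1 normalized counts in STING KO and at 3.99, 14.0 and 13.9 in control. The groups overlapped, and the lowest value was that of control replicate 1. Its log2 fold change was 0.71 (SE 0.48, limma adjusted p = 0.741), with a 95% interval from 0.772-fold to 3.47-fold. In the main limma fit this interval does not meet that of Col8a1, 0.526 to 0.735. The intervals were not compared under any other setting, and the difference between the genes was not itself tested. The estimate for Col8a2 leaned on control replicate 1, without which its log2 fold change was 0.12. In the authors' deposited table it is 0.525, with an SE of 0.596 that is larger than the value, beside -0.684 (SE 0.137) for Col8a1. Per kilobase of transcript, Col8a2 stood at 0.0585, 0.066 and 0.1 of the level of Col8a1 in STING KO and at 0.0127, 0.0439 and 0.0371 in control, without overlap. Col10a1, the chain of type X collagen of growth plate cartilage, was below the minimum for testing, at 0.99, 1.99 and 2.01 in STING KO and 5.99, 3.99 and 5.96 in control. These groups did not overlap, but with counts of 5 in STING KO and 16 in control in all (values rounded to whole counts) the fit with no filter gave a limma adjusted p of 0.791. Reads that Col10a1 shares with Nt5dc1, which overlaps it by 18 exon bases on the other strand, cannot be told apart, since no source used here states a strand setting. Markers of endothelial cells, which also make type VIII collagen, were summed over 8 genes at 95.6 to 98.0 normalized counts in STING KO and 80.8 to 92.9 in control, which do not overlap. Most of the sum was Vwf, whose own groups overlapped, at 67.3 to 79.3 in STING KO and 54.9 to 72.9 in control, and the tight junction gene Cldn5 was at 0 in all libraries. The part of such cells in the level of Col8a1 was not tested.

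Type VIII collagen holds the 1 called gene, so the sequences before the start of its genes are shown, from RefSeq on GRCm38.p6, in which 35 of the 44 members had an entry. Col8a1 is at chr16:57754738-57754987 on the minus strand and Col8a2 at chr4:126286544-126286793 on the plus strand, each with the 250 bases before the start, 5′ to 3′. Capitals mark matches to a loose NF-kB core GGGNNNNNCC on either strand.
Col8a1: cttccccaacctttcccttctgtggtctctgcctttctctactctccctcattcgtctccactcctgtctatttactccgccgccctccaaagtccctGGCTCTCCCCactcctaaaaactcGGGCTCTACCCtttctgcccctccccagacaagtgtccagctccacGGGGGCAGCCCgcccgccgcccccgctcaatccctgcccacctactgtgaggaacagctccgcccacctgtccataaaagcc
Col8a2: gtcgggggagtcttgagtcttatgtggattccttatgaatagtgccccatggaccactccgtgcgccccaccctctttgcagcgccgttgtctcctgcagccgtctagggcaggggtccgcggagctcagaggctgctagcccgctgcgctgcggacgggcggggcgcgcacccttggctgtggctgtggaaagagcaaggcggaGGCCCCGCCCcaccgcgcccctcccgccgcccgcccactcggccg
The Col8a1 window holds 3 stretches of matches, 152 to 143, 128 to 118 and 82 to 72 bases before the start, and in the last 2 of these the matches overlap each other. Col8a2 has 1 match, 45 to 36 bases before the start. The loose core is found in 46.0% of 32536 promoter windows of the same length. Neither window holds a match to the stricter NF-kB consensus (in 7.3% of windows), the AP-1 motif TGANTCA (6.7%), the CCAAT box CCAAT (33.8%) or the TATA box TATAAA (12.3%), all searched on both strands. A match is a description of letters and not a site, and the lack of one says only that these letters are not in this window. GC bases made up 60.8% of the Col8a1 window and 70.0% of the Col8a2 window.

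The fibrillar class held the most abundant collagen RNAs, and none of its 8 tested genes was called. Per kilobase of the longest transcript, Col1a2 led all members at 5334 ± 162 normalized counts in STING KO and 5056 ± 104 in control (SD, n = 3 each). Col1a1 followed at 1996 ± 130 in STING KO and 1831 ± 125 in control (SD, n = 3 each). Over the union of exons, the mean of the 6 libraries was 2236 per kilobase for Col1a2, in place of 5195, and 1729 for Col1a1, in place of 1913. These genes encode the alpha 2 and alpha 1 chains of type I collagen, the main fibre of skin and bone. All fibrillar genes together held 0.362 ± 0.00915% of the normalized counts in STING KO and 0.344 ± 0.00873% in control (SD, n = 3 each).

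Col1a2 was at 27583, 28706 and 29285 normalized counts in STING KO and at 26399, 27394 and 27328 in control. Each STING KO library lay above each control library, but the fold was 1.05 (95% interval 0.987 to 1.13, limma adjusted p = 0.738). Col1a1 was at 11619, 11196 and 12691 in STING KO and at 10264, 11689 and 10614 in control, which overlap. Its fold was 1.09, with a 95% interval of 0.988 to 1.204. Col3a1, the type III collagen of distensible tissues, was at 1528, 1559 and 1513 in STING KO and at 1358, 1359 and 1504 in control. These groups did not overlap, with control replicate 3 close to the STING KO libraries, and the fold was 1.09 (95% interval 0.998 to 1.19, limma adjusted p = 0.738).

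The type V chains, which are built into type I fibrils and limit their width, had overlapping groups for each of the 3 genes. Col5a1 was at 6121, 6218 and 6052 normalized counts in STING KO and at 6137, 6222 and 6474 in control. Col5a3 was at 2849, 2911 and 3082 in STING KO and at 2685, 2873 and 2757 in control. Col5a2 was at 848, 833 and 823 in STING KO and at 824, 791 and 894 in control, with a fold of 0.9997 and a 95% interval of 0.907 to 1.10. For the cartilage chains Col2a1 and Col11a2, STING KO gave 127 to 187 and 274 to 299 normalized counts, and control gave 138 to 157 and 293 to 304. The 95% interval lay within 1.5-fold in both directions for all 8 tested fibrillar genes, and was widest for Col2a1 (0.864 to 1.335).

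**Figure D2:**
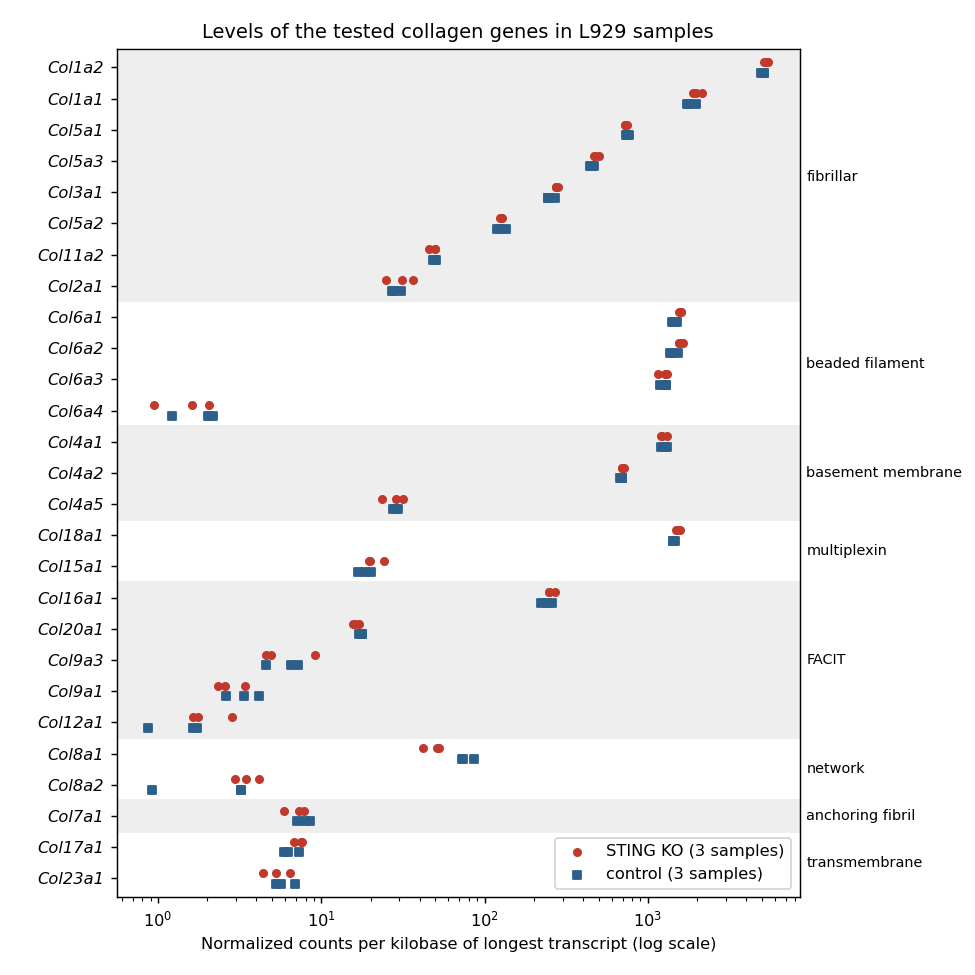
Level of each of the 27 tested collagen genes (rows, grouped by class) in each sample, as normalized counts per kilobase of the longest transcript on a log axis; red circles are STING KO and blue squares are control. The levels run from 1.67 per kilobase for Col6a4 to 5195 for Col1a2 (mean of 6 samples), and the groups of Col8a1 lie apart, while low genes such as Col8a2 and Col12a1 are spread widely within a group.

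Type VI collagen was also abundant, and no gene of it was called. Col6a1, Col6a2 and Col6a3 encode the chains of its main form, a beaded filament around cells. Col6a2 was at 7620, 7607 and 8096 normalized counts in STING KO and at 6866, 7474 and 6723 in control. All STING KO libraries were above the control libraries, with a fold of 1.11 (95% interval 1.02 to 1.204, limma adjusted p = 0.738). Col6a1 was at 6327, 6513 and 6584 in STING KO and at 6211, 5997 and 5776 in control, also without overlap, with a fold of 1.08 (95% interval 1.006 to 1.16, limma adjusted p = 0.738).

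Col6a3, the longest of these chains, was at 12876, 13157 and 11648 normalized counts in STING KO and at 13015, 12056 and 13072 in control. Its groups overlapped, and its fold was 0.987 (95% interval 0.902 to 1.08). The low point was STING KO replicate 3, the library in which Col6a1, Col6a2 and Col1a1 were at their highest. Col6a4, an alternative chain, was at 6.93 to 15.1 in STING KO and 8.99 to 15.96 in control. Col6a5 and Col6a6 did not exceed 1.99 in any library.

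Among the basement membrane genes, Col4a1 and Col4a2 were abundant, Col4a5 was low and the remainder were at the limit of detection. Col4a1 and Col4a2 lie head to head on chromosome 8 and their annotated transcripts overlap by 22 bases. Col4a1 was at 8113, 8618 and 7988 normalized counts in STING KO and at 8459, 7986 and 8609 in control, with a fold of 0.987 (95% interval 0.913 to 1.07). Col4a2 was at 4502, 4468 and 4632 in STING KO and at 4329, 4464 and 4450 in control, with a fold of 1.03 (95% interval 0.960 to 1.10). Its groups were separated by 4 counts only, between 4468 in STING KO and 4464 in control. Col4a5, of the kidney-type network, was at 187, 206 and 155 in STING KO and at 192, 180 and 187 in control. Col4a3 did not exceed 12.97 and Col4a4 did not exceed 4.02, and Col4a6 was listed at 0 in all 6 libraries.

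The remaining classes held 1 more abundant gene, Col18a1, the source of the fragment endostatin. It was at 8403, 8296 and 8761 normalized counts in STING KO and at 7916, 8201 and 7984 in control, with no overlap and a fold of 1.06 (95% interval 0.988 to 1.13, limma adjusted p = 0.738). The other multiplexin gene, Col15a1, was at 102, 125 and 102 in STING KO and at 95.8, 86.8 and 104 in control. Col16a1 led the FACIT class at 1283, 1299 and 1396 in STING KO and 1157, 1338 and 1251 in control. Col20a1, also a FACIT gene, was at 78.7 to 85.4 in STING KO and 84.9 to 89.4 in control.

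Low FACIT genes were Col12a1, at 32.7, 18.9 and 20.1 normalized counts in STING KO and 9.98, 19.95 and 18.9 in control, Col9a1, at 8.96 to 13.1 in STING KO and 9.98 to 15.97 in control, and Col9a3, at 13.9 to 27.7 in STING KO and 13.9 to 22.0 in control. Col12a1 had the smallest p of its class, at 0.57 on the log2 scale (SE 0.34, limma adjusted p = 0.738), and its groups overlapped. Col9a3 shares 234 exon bases with Tcfl5 on the other strand, so its value is uncertain. Col7a1, the anchoring fibril chain that fastens epithelium to dermis, was at 54.4, 67.7 and 72.3 in STING KO and at 65.9, 73.8 and 78.5 in control (fold 0.887, 95% interval 0.704 to 1.12). Of the transmembrane genes, Col17a1 was at 42.6, 41.8 and 38.2 in STING KO and at 32.9, 34.9 and 40.7 in control. Col23a1 was at 24.7, 29.9 and 36.2 in STING KO and at 29.95, 38.9 and 31.8 in control.

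**Figure D3:**
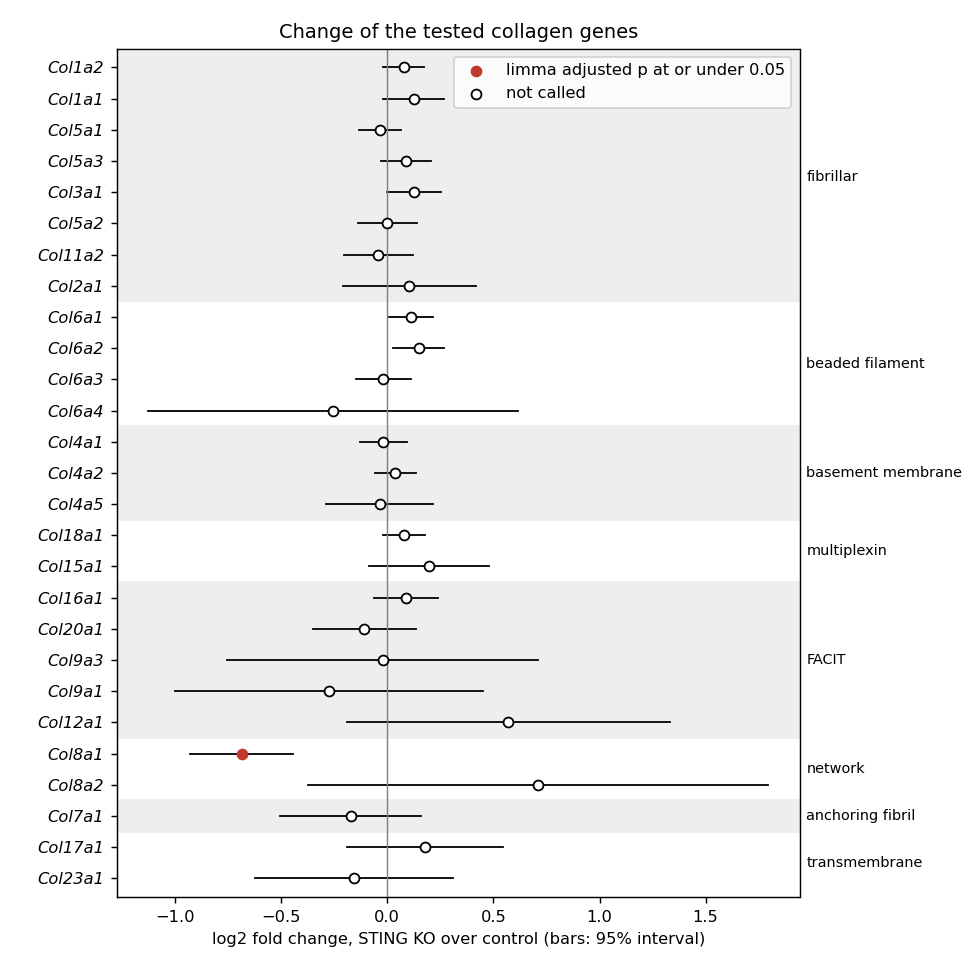
Fold change of each of the 27 tested collagen genes (rows, grouped by class) on the log2 scale, STING KO over control, with 95% intervals from limma. Col8a1, at -0.69, is the 1 gene called (filled red), and the wide intervals belong to genes with few counts such as Col8a2, Col6a4 and Col9a1.

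Of the tested members, 6 were higher in each STING KO library than in each control library, by 1.03-fold to 1.11-fold: Col1a2, Col3a1, Col6a1, Col6a2, Col4a2 and Col18a1. That is 22.2% of the 27 tested, beside 5.76% of all genes tested, and limma called 0 of the 6. Lower without overlap was 1 member, Col8a1, which is 3.7% of the 27 beside 6.32% of all genes. Without the pair of libraries that hold hepatocyte transcripts, 11 members (40.7%) were higher with no overlap, beside 12.9% of all genes. Summed over all 44 members, collagen RNA made up 0.700%, 0.714% and 0.715% of the normalized counts in STING KO and 0.673%, 0.684% and 0.687% in control. The sums do not overlap between the groups, and no test was made on them. In 20 of the 27 tested members the 95% interval lay within 1.5-fold in both directions.

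The RNA ratios between chain genes overlapped between the groups in 6 of 8 pairs. The pairs are chains of the same collagen, except Col3a1 over Col1a1, of types III and I. Col8a2 over Col8a1, a pair without overlap, has the called gene as its denominator. Type I protein holds more alpha 1 than alpha 2 chains, whereas Col1a1 RNA per kilobase was 0.374 ± 0.0202 of Col1a2 RNA in STING KO and 0.362 ± 0.0198 in control (SD, n = 3 each). The level of this ratio depends on the length used, since with the union of all annotated exons it averaged 0.773 over the 6 libraries. Col3a1 stood at 0.139 ± 0.0108 of Col1a1 in STING KO and 0.139 ± 0.0137 in control, and at 0.0870 by exon union (SD, n = 3 each). Col4a2 stood at 0.565 ± 0.0317 of Col4a1 in STING KO and 0.543 ± 0.0266 in control (SD, n = 3 each).

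Col6a2 was at 1.002 ± 0.0258 of Col6a1 in STING KO and 0.978 ± 0.0590 in control (SD, n = 3 each), or 0.624 by exon union. Col6a3 was at 0.826, 0.820 and 0.718 of Col6a1 in STING KO and at 0.850, 0.816 and 0.918 in control, which overlap. Its extremes were STING KO replicate 3 and control replicate 3. Col5a3 was at 0.639, 0.643 and 0.699 of Col5a1 in STING KO and at 0.601, 0.634 and 0.585 in control, with no overlap but a gap smaller than the spread within either group. Col5a2 was at 0.173 ± 0.0029 of Col5a1 in STING KO and 0.169 ± 0.00705 in control (SD, n = 3 each).

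**Figure D4:**
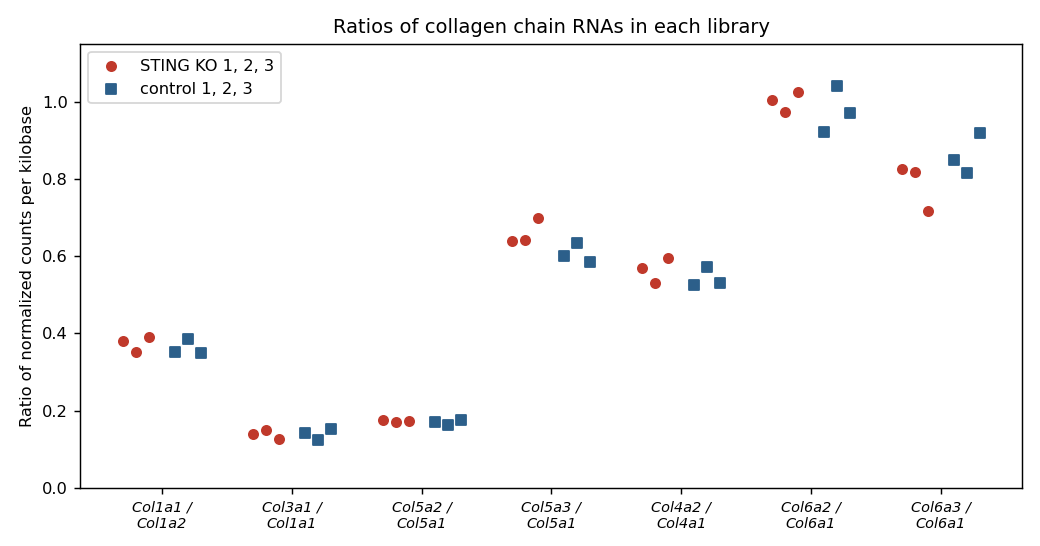
Ratio of normalized counts per kilobase between chain genes in each library (red circles, STING KO replicates 1 to 3 from left; blue squares, control replicates 1 to 3 from left). Among the pairs plotted, which leave out Col8a2 over Col8a1, the groups overlap except for Col5a3 over Col5a1, at 0.639 to 0.699 in STING KO and 0.585 to 0.634 in control.

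The 17 members below the minimum were at most 12.97 normalized counts in any library. Col4a6 and the transmembrane gene Col13a1 were listed at 0 in all 6 libraries. A further 8 had no value above 2: Col9a2, Col19a1, Col22a1, Col24a1, Col25a1, Col28a1, Col6a5 and Col6a6. Col11a1 and Col26a1 reached 3.99 and 4.98, and the highest of the 17 were Col4a3 (12.97), Col14a1 (11.9), Col27a1 (9.93) and Col10a1 (5.99). Fitted with no filter, the smallest limma adjusted p among the 17 was 0.791.

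Col14a1, a FACIT gene of interstitial fibroblasts that lay below the minimum for testing, was highest in a single library of each group. It was at 9.90, 0 and 0 normalized counts in STING KO and at 0.998, 1.995 and 11.9 in control, so that its counts were nearly all in STING KO replicate 1 and control replicate 3. Col27a1 was also highest in these libraries, at 6.93 and 9.93, with 0.998 to 4.99 in the other 4, and Col28a1 was at 1.98 and 1.99 there and at 0 elsewhere. These collagen genes were picked for this distribution among the 17 members below the minimum. Its share over all genes below the minimum was not counted, and values this low vary widely between libraries. The genes Dcn and Lum, for proteoglycans that bind collagen fibrils, had this distribution too. Dcn was at 32.7 and 94.4 in these libraries and at most 4.99 in the other 4, and Lum was at 11.9 and 31.8 and at most 0.998. Summed over 10 hepatocyte genes, the libraries stood at 4637 normalized counts for STING KO replicate 1 and 4956 for control replicate 3. The lowest sum of a library was 326 in STING KO and 315 in control. The part of such transcripts in the level of Col14a1 was not tested. Of the 27 tested members, 1 (Col5a2) was higher in both of these libraries than in the other 4, or 3.70%, beside 4.32% of all genes tested, and 1 (Col11a2) was lower in both, or 3.70%, beside 4.42%.

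**Figure D5:**
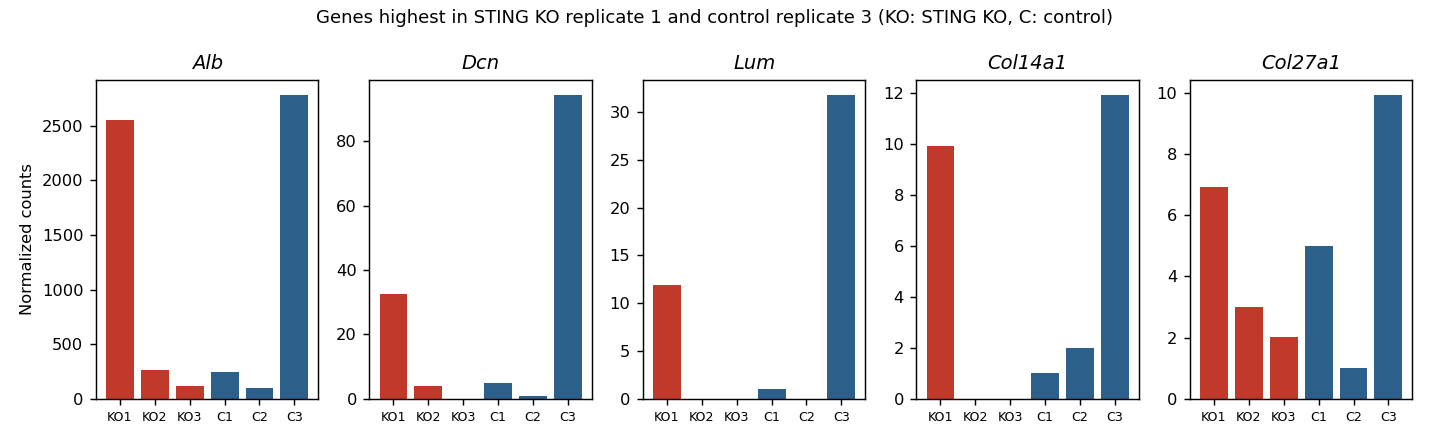
Normalized counts of Alb, Dcn, Lum, Col14a1 and Col27a1 in each library (bars from 0; red, STING KO; blue, control). The genes shown were chosen because the bars of STING KO replicate 1 and control replicate 3 are the highest, for Col14a1 at 9.90 and 11.9.

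Enzymes that modify and fold collagen chains in the endoplasmic reticulum were not called, and 12 of the 15 tested had a positive sign, with 4 at an unadjusted limma p at or under 0.05, beside 6.37% of all genes. Their median log2 fold change was 0.10, beside -0.0025 over all genes, and 5 were higher without overlap, beside 5.76% of all genes. Their summed level was 82865 to 87756 normalized counts in STING KO and 78037 to 81742 in control. Most of this sum was P4hb, at 30862 to 32157 in STING KO and 28353 to 30169 in control, and Serpinh1, whose own groups overlapped. The smallest p were those of Fkbp10, a prolyl isomerase, at 113, 101 and 122 normalized counts in STING KO and 80.9, 88.8 and 80.5 in control (log2 fold change 0.42, SE 0.12, limma adjusted p = 0.533), and of Plod1. Plod1, a lysyl hydroxylase, was at 3350, 3674 and 3761 in STING KO and at 3187, 3191 and 3039 in control (log2 fold change 0.19, SE 0.06, limma adjusted p = 0.577). The prolyl hydroxylase genes P4hb and P4ha1 and the prolyl 3-hydroxylase gene P3h3 were the others without overlap, and the collagen chaperone gene Serpinh1 was at 26717 to 29882 in STING KO and 25655 to 27162 in control.

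Secretion and propeptide processing genes had 0 of 12 tested called by limma, and 0 with an unadjusted p at or under 0.05, with 4 positive and 8 negative signs and a median of -0.01. The smallest p were those of the vesicle coat genes Sec24d (log2 fold change -0.14, SE 0.09) and Sec23a (-0.11, SE 0.08). Crosslinking by lysyl oxidases had 0 of 5 called and 0 before adjustment, with Loxl4 at -0.16 (SE 0.09) and Loxl3 at 0.10 (SE 0.07). Proteoglycans and glycoproteins that bind collagen had 0 of 8 called and 0 before adjustment, with Bgn (biglycan) at 0.15 (SE 0.07) and Sparc at 0.09 (SE 0.05).

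Collagen receptor genes had 0 of 5 tested called, with 2 before adjustment (6.37% of all genes), and the integrin genes Itga1, Itga2 and Itga11 did not exceed 7.95 normalized counts. Ddr1, a receptor tyrosine kinase for collagen, had the smallest p of the list. It was at 954, 932 and 996 in STING KO and at 1140, 1154 and 1095 in control, without overlap (log2 fold change -0.23, SE 0.05, limma adjusted p = 0.337). Mrc2, an endocytic collagen receptor, was at 3458, 3683 and 3743 in STING KO and at 3414, 3250 and 3261 in control, also without overlap (log2 fold change 0.13, SE 0.05, limma adjusted p = 0.738). Basement membrane partners of type IV collagen had 0 of 9 called, with 1 before adjustment (6.37% of all genes) and 6 negative signs. Without overlap, 2 of the 9 (Lamc1 and Hspg2) were lower, beside 6.32% of all genes, and 0 were higher, beside 5.76%. Lamc1, a laminin chain, was at 4845, 5030 and 4325 in STING KO and at 5280, 5049 and 5497 in control (log2 fold change -0.16, SE 0.06, limma adjusted p = 0.738), and Hspg2 (perlecan) had a log2 fold change of -0.09 (SE 0.04).

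Marker lists of cell types had 0 members called by limma, and before adjustment 1 osteoblast marker (Runx2) and 1 epithelial marker (Krt8) had a p at or under 0.05, beside 6.37% of all genes. The sum over 8 osteoblast markers did not overlap between the groups, at 1145 to 1257 normalized counts in STING KO and 1285 to 1403 in control, and was almost wholly Runx2, at 1168, 1183 and 1069 in STING KO and 1278, 1200 and 1316 in control. The smallest p of each were those of Vim and S100a4 among fibroblast markers (0 of 10), Comp and Sox9 among chondrocyte markers (0 of 5), Runx2 and Dmp1 among osteoblast markers (0 of 3), and Cd68 and Laptm5 among macrophage markers (0 of 5). For epithelial markers (0 of 3) they were Krt8 and Krt19, for hepatocyte markers (0 of 9) Apob and Fgb, for smooth muscle markers (0 of 2) Des and Acta2, and for endothelial markers Vwf, the 1 gene tested. Smooth muscle markers, of interest beside Col8a1, were summed over 7 genes at 667 to 733 normalized counts in STING KO and 592 to 686 in control. Des alone gave 629.5 to 702 of this in STING KO and 568 to 659 in control, and each of the other 6 was at most 14.9 in any library. Their part in the level of Col8a1 was not tested.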

How the data were processed

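Poly(A) RNA of 6 L929 samples was sequenced. The authors deposited 1 gene table whose sample columns hold a signal, the gene count divided by a size factor of the library; that it is so scaled was read from the values. Per the file headers the authors also give a log2 fold change, a Wald score and a p-value. Per the submitters' processing notes, the tools were DESeq2 1.4.5, HISAT2 2.0.4, RSEM 1.2.12 and Bowtie2 2.2.5, on the build GRCm38 (mm10).

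The first of 27821 rows was kept for each of 27507 identifiers. limma 3.58.1 (R 4.3.3) with a mean-variance trend was fitted to log2(normalized count + 0.1) for genes with at least 10 in at least 3 samples. Fold changes of low genes depend on the constant added, and that of Col8a2 was 0.71 with 0.1 and 0.64 with 1 on the log2 scale. The limma fit was tested on simulated data. p-values were Benjamini-Hochberg adjusted over all genes tested. Lengths and coordinates are from GENCODE M21 (GRCm38). No label says that same-numbered samples were paired, and the main fit did not pair them. The other settings tried were voom, 2 scalings, a pseudocount of 1, 2 filters, a replicate block and leaving out libraries.

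The collagen genes, their classes and the lists were chosen with earlier results of these data known. Values per sample are given for called members, the 8 highest per length, those without overlap and the smallest p of each class; in other lists the 2 smallest p are named.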

Additional observations from a re-analysis of the deposited data

How the results depend on the processing

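The 1 collagen gene called lower, Col8a1, became 0 with limma-voom, with no filter, with a replicate block and without the pair of libraries that hold hepatocyte transcripts; without 1 library the count was 0 to 1. The cause was not tested. All genes called lower, 32, became 18 with the replicate block and 13 without that pair, and were 21 to 35 without 1 library. Genes called higher, 0, became 6 in the authors' deposited test and were 0 to 2 without 1 library. Collagen genes higher without overlap, 6 beside 5.76% of all genes, became 11 without that pair, beside 12.9% of all genes. Without 1 library they were 6 to 10, beside 8.37% to 17.3% of all genes. For this count, the settings that leave out libraries were chosen after seeing the data. Of 398 collagen fold changes under an alternative, 389 kept their side of the threshold, 9 (all Col8a1) were no longer past it and 0 called values turned. The other members had a main limma adjusted p of at least 0.738, so the 389 mostly counts genes far from the threshold. Of the uncalled values, 24 changed sign. Deviations of same-numbered samples from their group means correlated at -0.183, -0.180 and -0.488, and 0 of 6 samples correlated best with their own number. With 3 samples per group such correlations are constrained, so they cannot decide whether the samples were paired. Scaling moved the median fold change of all genes by 0.0037 (TMM) and 0.0203 (upper quartile) on the log2 scale. The order of levels per kilobase was nearly kept with exon unions (Spearman 0.990 across 27 genes, which are not independent). edgeR and DESeq2 fits on recovered whole reads were planned and not run. The deposited values move in steps so close to 1 that whole reads were not accepted as recovered. Of the tested members, 6 that were not called, each with a mean of at most 31.9 normalized counts, had 95% intervals reaching past 1.5-fold.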
